A study of Drosophila melanogaster with 12 samples.

Results

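A set of 102 genes gave almost no reads in the salivary glands and wing discs of control fruit fly larvae, and was read in at least one of these tissues in larvae labelled as mutant for both egg (SetDB1) and Su(var)3-9. Members were chosen by their measured levels: the mean in CPM (counts of a gene per 1000000 counts of the library) had to be under 0.5 in control glands and in control discs, and at least 2 in mutant-labelled glands or mutant-labelled discs. Of 17807 gene IDs, 8047 were under 0.5 CPM in both control groups, and the 102 members are 1.27% of these. In 38 members only the mutant-labelled glands reached 2 CPM, in 57 only the mutant-labelled discs did, and in 7 both did. The other 7945 genes that were silent in controls stayed under 2 CPM in both mutant-labelled groups.

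The libraries hold polyadenylated RNA of Drosophila melanogaster at larval stage L3, raised at 25 °C, with 3 libraries in each of 4 groups. Control larvae were of the wild-type strain Oregon R, and mutant-labelled larvae had the genotype egg_1473 with Su(var)3-9_06. The labels name no control of the mutants' own background, so genotype and strain background cannot be told apart. Each library was made from 25 glands or 25 pairs of discs, and gland RNA went through a repeated oligo-dT enrichment, so that tissue and enrichment cannot be told apart either. The labels mention technical replicates, so the spread between libraries, and the p-values that rest on it, may be technical only.

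The products of egg and Su(var)3-9 are enzymes that methylate lysine 9 of histone H3, a mark that binds HP1 proteins in heterochromatin and keeps many genes and transposons from being transcribed. In fly tissues, SetDB1 is also known for keeping genes of other cell types off, for instance male germline genes in the female germline. Larval salivary glands are large secretory organs with polytene chromosomes, while wing discs are diploid, dividing epithelia that later form the wing and thorax.

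Depth was 17418224 to 57591665 counts per library, so that 0.5 CPM stands for 8.71 to 28.8 counts and 2 CPM for 34.8 to 115 counts. A limit of 3 counts, the most that a count of 0 allows, came to 0.0521 to 0.172 CPM, and this covers counting error only. Summed CPM of 8 salivary gland markers was 266708 to 297957 in the glands and 3471 to 5589 in the discs, and that of 8 wing disc markers was 1435 to 2022 in the discs and 44.6 to 79.1 in the glands. Su(var)3-9 read 25.0, 24.9 and 25.8 CPM in control discs and 4.71, 3.91 and 3.19 CPM in mutant-labelled discs. In glands it went against the label, with 2.93, 2.64 and 2.15 CPM in controls and 69.5, 61.5 and 99.7 CPM in the libraries labelled as mutant, which is why the groups are called mutant-labelled throughout. egg overlapped between the gland groups, with 4.96, 10.9 and 8.77 CPM in controls and 7.67, 7.29 and 6.15 CPM in mutant-labelled libraries, and its 133 to 144 CPM in control discs overlapped the 124 to 135 CPM of mutant-labelled discs.

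Because the same values chose the members, their rise from control to mutant-labelled libraries is described here without a test. In all 45 members that reached 2 CPM in glands, each mutant-labelled gland library lay above each control gland library, and the same held in discs for all 64 members that reached 2 CPM there. Among all 15042 genes with a count, 9.73% had groups set apart in this way in glands and 15.2% in discs, and since the rule used this contrast nothing is read from the difference. All 3 mutant-labelled libraries reached 2 CPM for 21 of the 38 gland-only members and for 43 of the 57 disc-only members. Just inside the control limit lay CG3119 (0.491 CPM), CG3251 (0.479 CPM) and the gene ID FBgn0267040 (0.475 CPM), which has no gene model in the annotation. Just outside it lay niki (0.506 CPM), Mst87F (0.517 CPM) and yellow-g (0.526 CPM). At the mutant limit, CG1208 (2.01 CPM), CG3119 (2.02 CPM) and Elk (2.11 CPM) were inside, while CG32625 (1.996 CPM), CG33271 (1.99 CPM) and CG34393 (1.89 CPM) were outside.

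On the CPM scale the disc-only members were the more numerous class and had the higher summed level. The order of the class sizes depends on the scale: with TMM-normalised CPM the rule gave 48 gland-only, 42 disc-only and 9 shared genes, and with DESeq2 size factors 47, 44 and 10. Of the 102 members, 76 and 74 were members on these scales. The summed level of the disc-only members was 9.63 to 10.8 CPM in control discs and 494 to 587 CPM in mutant-labelled discs. The gland-only members summed to 7.23 to 9.59 CPM in control glands and to 143 to 165 CPM in mutant-labelled glands. A mean of 10 CPM or more was reached by 13 of the 57 disc-only members, by 1 of the 38 gland-only members, and among the 7 shared members by 2 in glands and by 6 in discs. Libraries of a mutant-labelled group were closer to each other in discs, where the median ratio of the highest to the lowest library was 1.45 over the disc-only members, than in glands, where it was 2.13 over the gland-only members. Mutant-labelled gland library 3 was the highest of its group for 19 of these 38 genes. In bulk RNA, fewer cells that hold a transcript and less of it per cell cannot be told apart.

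**Figure D1:**
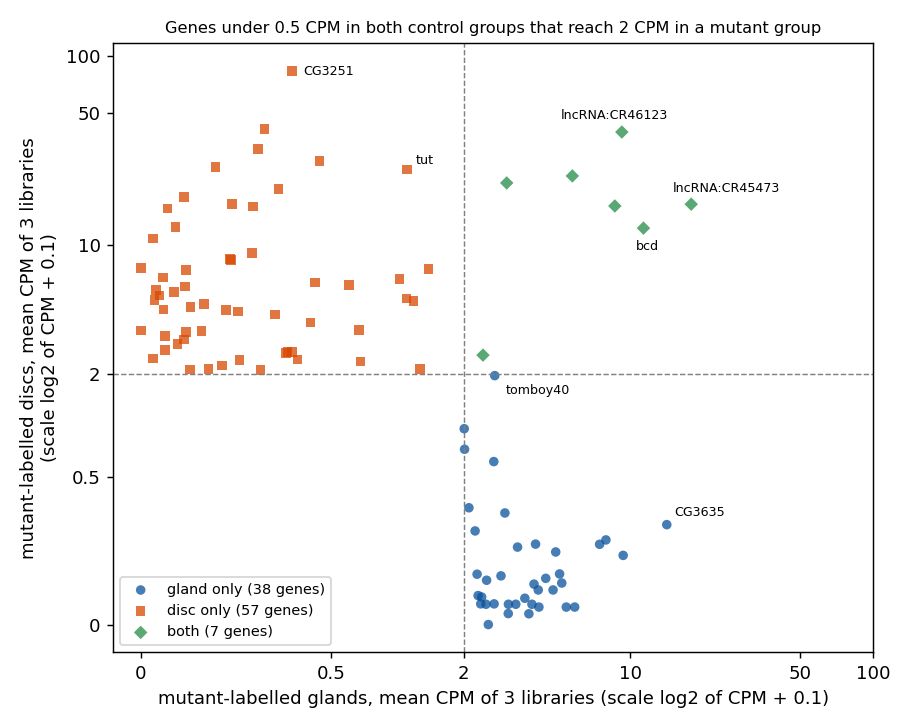
Each point is 1 of the 102 members, placed by its mean CPM over 3 mutant-labelled gland libraries (x axis) and 3 mutant-labelled disc libraries (y axis), both on a log2 scale of CPM + 0.1, with dashed lines at 2 CPM. The 38 gland-only and 57 disc-only members mostly lie near 0 in the other tissue, tomboy40 lies just under the line in discs, and 7 members pass both lines.

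By the rule's classes, most members reached 2 CPM in 1 tissue alone. In mutant-labelled discs, 34 of the 38 gland-only members stayed under a mean of 0.5 CPM, and in mutant-labelled glands 48 of the 57 disc-only members did. The rule bounded these values and no share of other genes stands beside them, so nothing is read from these counts. Groups of the other tissue were set apart, mutant-labelled above control, in 6 of the 38 gland-only members (15.8%) and 16 of the 57 disc-only members (28.1%). Among all genes with a count this held for 15.2% in discs and 9.73% in glands. The rule bounded the values of the other tissue as well, so nothing is read from these shares. Among the 6 gland-only genes set apart in discs, tomboy40 had the highest level in mutant-labelled discs. It is a paralog of the mitochondrial import channel gene Tom40 that is used in the testis. It read 0.607, 0.230 and 0.326 CPM in control glands and 2.38, 2.43 and 3.35 CPM in mutant-labelled glands, a 7.02-fold rise of the mean. In discs it went from 0.542, 0.354 and 0.293 CPM to 1.97, 1.78 and 2.14 CPM, which is 4.95-fold and just under the limit. CG1208 rose more in discs, 16.9-fold to a mean of 0.982 CPM, from a control group with 4 counts. Among the disc-only genes, tut, CG14451 and lncRNA:CR44441 read 1.13, 1.29 and 1.41 CPM on average in mutant-labelled glands, where each library was under 2 CPM.

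The 7 shared members comprise 2 protein-coding genes, 3 long non-coding RNA genes, a pseudogene and a microRNA gene. The homeobox gene bcd, whose maternal mRNA sets the head end of the embryo, is normally read in the ovary. It read 0.506, 0.172 and 0.0575 CPM in control glands and 5.59, 9.03 and 19.5 CPM in mutant-labelled glands. In discs it read 0.362, 0.202 and 0.0366 CPM in controls and 6.56, 16.3 and 14.0 CPM in mutant-labelled libraries. The rise of the mean was 46.4-fold in glands and 61.4-fold in discs, with a wide spread within both mutant-labelled groups. The cytochrome P450 gene Cyp6a17 (chromosome 2R, 14873953 to 14875739, build BDGP6) went from 0.101, 0.631 and 0.0958 CPM to 6.32, 6.34 and 4.62 CPM in glands. In discs it went from 0.362, 0 and 0.220 CPM to 29.5, 20.4 and 19.9 CPM, so that the mean rose 20.9-fold in glands and 120-fold in discs.

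The highest of the shared members in discs was lncRNA:CR46123 (chromosome 3R, 1366234 to 1366601), with 0.452, 0.202 and 0.293 CPM in controls and 40.0, 38.9 and 40.5 CPM in mutant-labelled libraries. In glands its level was 0.354, 0.631 and 0.383 CPM in controls and 6.67, 13.7 and 7.36 CPM in mutant-labelled libraries. These are rises of the mean of 126-fold in discs and 20.3-fold in glands, and the 3 mutant-labelled disc libraries were nearly alike. In glands the highest shared member was lncRNA:CR45473 (chromosome X, 140722 to 142197), which went from 0.405, 0.689 and 0.268 CPM to 14.9, 22.1 and 16.6 CPM. Its disc libraries went from 0.542, 0.202 and 0.220 CPM to 15.5, 15.1 and 18.9 CPM, giving 39.4-fold in glands and 51.3-fold in discs. Exons of tyn cover 24.5% of its exons, and reads of the overlap cannot be assigned without strand. lncRNA:CR46253 (chromosome 2L, 23239253 to 23240411), close to the centromeric end of its arm, rose 60.1-fold in glands, from 0.202, 0 and 0.230 CPM to 9.65, 9.28 and 7.01 CPM. In discs it rose 43.5-fold, from 0.407, 0.303 and 0.403 CPM to 14.7, 15.9 and 17.8 CPM.

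The pseudogene CR40282 (chromosome 2R, 4730439 to 4731241) lies almost wholly under another annotated transcript, lncRNA:CR45471, whose exons cover 88.4% of its own, so its reads are uncertain. Its level was 0.303, 0.115 and 0.153 CPM in control glands, 2.07, 4.64 and 2.46 CPM in mutant-labelled glands, 0.542, 0 and 0.696 CPM in control discs and 23.0, 18.2 and 23.0 CPM in mutant-labelled discs. The mean was thus 16.04-fold higher in glands and 51.8-fold higher in discs. The microRNA gene mir-2279 gave no count in any control disc library, and 3.30, 1.74 and 2.60 CPM in mutant-labelled discs. Against 3 counts over the control group this is at least 58.8-fold higher. Its gland libraries held 0, 0.0574 and 0.153 CPM in controls and 2.24, 3.16 and 1.87 CPM in mutant-labelled libraries, a rise of 34.5-fold. Libraries of polyadenylated RNA read transcripts across the hairpin, not the mature microRNA, so these values say nothing of the latter.

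**Figure D2:**
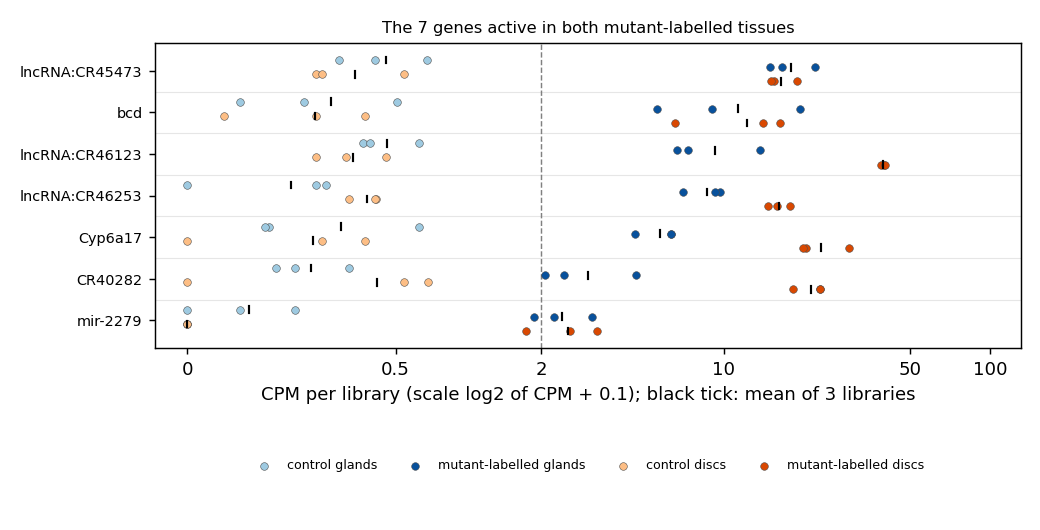
Level of the 7 shared members in each of the 12 libraries, in CPM on a log2 scale of CPM + 0.1, with 1 point per library and a colour per group. In every gene the 3 mutant-labelled libraries of a tissue lie above its 3 controls, which the selection rule favours, and bcd has the widest spread in mutant-labelled glands, from 5.59 to 19.5 CPM.

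Both mutant-labelled means entered the rule, so the difference between mutant-labelled discs and glands in the 7 shared members is a description, and no call is read from it. In an edgeR quasi-likelihood fit of 9847 genes with TMM factors, 42.2% of all genes were higher in discs and 40.6% higher in glands at an adjusted p under 0.05. Of the 7 shared members 2 lay past this threshold towards discs and 4 towards glands. The scale sets several of these directions. The 20 most abundant genes took 40.5% to 45.6% of gland counts and 9.90% to 11.99% of disc counts. With plain library totals in place of TMM factors, the median of all genes moved from 0.04 to 1.55 (log2, discs over glands), and 4 shared members lay past the threshold towards discs and none towards glands.

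By the TMM scale the log2 difference, discs over glands, was 1.30 ± 0.29 (SE) for CR40282, and over 15 alternatives it ran from 1.07 to 2.80. It was 0.60 ± 0.25 for lncRNA:CR46123 and 0.51 ± 0.21 for Cyp6a17. Both lie at the threshold, which lncRNA:CR46123 missed and passed in 8 of 15 alternatives, and which Cyp6a17 passed and kept in 7 of 15. lncRNA:CR45473 was at -1.63 ± 0.18, and at -0.12 with library totals. mir-2279 (-1.44 ± 0.32), bcd (-1.41 ± 0.49) and lncRNA:CR46253 (-0.61 ± 0.16) were lower in discs by TMM and turned to 0.07, 0.12 and 0.90 with library totals. The sign of the difference thus held under both scales for CR40282, lncRNA:CR46123, Cyp6a17 and lncRNA:CR45473.

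Among the 38 gland-only members the best-defined group was that of secreted immune and stress peptides. Of 86 genes on a list of immune genes, 25 were silent in both control tissues, and 7 of these became members, against 1.27% of all control-silent genes. All 7 were gland-only: BomS5, BomS6 and BomT1, Dso1 and Dso2, and TotB and TotC. Bomanins (Bom) and Daisho peptides (Dso) are small peptides that the fat body secretes after activation of the Toll pathway, and Turandot proteins (Tot) are released under stress. Scaled to transcript length, BomS5 and BomS6 were the highest gland-only members, with a mean of 27.0 and 24.2 CPM per kb in mutant-labelled glands. BomS5 (chromosome 2R, 18389959 to 18390242) went from 0, 0.230 and 0.115 CPM to 6.49, 4.90 and 6.29 CPM, a rise of 51.3-fold. BomS6, which starts just behind it, went from 0.253, 0.459 and 0.460 CPM to 6.11, 5.72 and 2.53 CPM, a rise of 12.3-fold. BomT1 went from 0.101, 0 and 0.153 CPM to 3.00, 2.27 and 4.05 CPM, which is 36.7-fold.

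The Daisho genes lie side by side on chromosome 2R. Dso1 read 0.303, 0.115 and 0.0766 CPM in control glands and 4.20, 5.63 and 5.78 CPM in mutant-labelled glands, and Dso2 read 0.303, 0.230 and 0.230 CPM and then 2.64, 3.34 and 1.503 CPM. TotC rose from 0, 0.115 and 0.0766 CPM to 6.18, 4.77 and 3.78 CPM, 77.0-fold on average. TotB, its neighbour, went from 0.202, 0 and 0.326 CPM to 2.85, 1.15 and 8.45 CPM, so that mutant-labelled gland library 3 set most of its mean. In discs the highest mean among the 7 peptide genes was the 0.151 CPM of TotB in controls, which came from 1 library. Summed over 8 fat body markers, all of them with a count, the level was 14153 to 19544 CPM in control glands and 26003 to 30456 CPM in mutant-labelled glands. The 20 silent genes of a fat body and hemolymph list gave no gland-only member. Over all control-silent genes 0.472% were gland-only members, so nothing is read from this. The part of fat body cells in the result was not tested.

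Not every neighbour of these peptide genes moved with them. TotA, which lies 1288 bases from TotC, was the family member read in controls, with 162, 63.1 and 155 CPM, and fell to 35.4, 18.9 and 34.7 CPM in mutant-labelled glands (log2 -1.99 ± 0.44, edgeR adjusted p = 0.0227). The 7 other Bomanin genes of the locus did not meet the rule's limits and were all higher in mutant-labelled glands by the same test. BomS3 rose from 3.74, 4.88 and 3.22 CPM to 161, 115 and 145 CPM (log2 5.29 ± 0.26, edgeR adjusted p = 7.99e-05), and BomS1 rose from 0.910, 2.70 and 0.862 CPM to 89.7, 67.9 and 72.6 CPM (log2 5.89 ± 0.44, edgeR adjusted p = 1.89e-04).

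Detoxification enzymes gave 5 members out of 65 silent genes on a list of 180, against 1.27% of all control-silent genes. These were Cyp4ad1 and Cyp4p1 in glands, GstE2 and Ugt35C1 in discs, and Cyp6a17 in both. Cyp4ad1, a cytochrome P450 gene on chromosome 2R, went from 0.202, 0.689 and 0.0383 CPM to 8.49, 7.51 and 7.83 CPM in glands, the most even rise among the 10 highest gland-only members by SD over mean. Cyp4p1 went from 0.101, 0.574 and 0.115 CPM to 2.41, 5.41 and 4.30 CPM. Such enzymes are also made in the fat body, and any part of fat body cells in these levels was not tested.

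The highest gland-only gene was CG3635 (chromosome 2L, 22175415 to 22183991), with 0.0506, 0.230 and 0.172 CPM in control glands and 11.4, 16.8 and 14.3 CPM in mutant-labelled glands, a 94.0-fold rise. In discs it read 0.362, 0.101 and 0.183 CPM and then 0.343, 0.284 and 0.0840 CPM, with overlapping groups. CG6012 went from 0, 0 and 0.517 CPM to 9.88, 7.13 and 11.1 CPM, and CG9701 from 0.455, 0.115 and 0.460 CPM to 8.07, 4.55 and 9.82 CPM. The gene for resilin, the elastic protein of insect cuticle, gave no count in control glands and 1.48, 1.90 and 3.55 CPM in mutant-labelled glands, at least 68.8-fold higher against 3 counts over the group. Vkor, which starts just before resilin, rose with it from 0.202, 0.344 and 0.230 CPM to 1.23, 1.61 and 4.69 CPM. In both genes library 3 was the highest, as in 19 of the 38 gland-only members. CG13930 held counts in 1 control library alone, and its pooled ratio of mutant-labelled to control counts was 155, with a 95% interval of 42.7 to 1284 that covers counting error only.

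Genes of the nervous system among the gland-only members were dpr13, which encodes a cell-surface protein of the immunoglobulin superfamily, the potassium channel gene Elk and the proton channel gene OtopLa. dpr13 went from 0, 0.344 and 0.0383 CPM to 2.54, 4.64 and 5.35 CPM. Elk went from 0.303, 0.574 and 0.364 CPM to 1.60, 2.61 and 2.12 CPM, and OtopLa from 0.354, 0.115 and 0.326 CPM to 3.92, 2.45 and 1.71 CPM. In each of the 3 genes the lowest mutant-labelled gland library was above the highest control. Summed over 7 neuronal markers the level was 18.9 to 27.4 CPM in control glands and 36.6 to 49.3 CPM in mutant-labelled glands, with ChAT at 0 in the latter, and their part in the result was not tested.

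Some gland-only means rest on few libraries. CG17283 read 11.0, 4.42 and 0.843 CPM in the mutant-labelled glands, CG45079 read 1.84, 4.40 and 0.615 CPM, and CG43133 read 1.77, 1.02 and 6.51 CPM. For each of these genes the lowest mutant-labelled library was under 2 CPM, although still above its 3 controls. Without mutant-labelled gland library 3, 7 members dropped below the limits and 98 members were left in all.

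**Figure D3:**
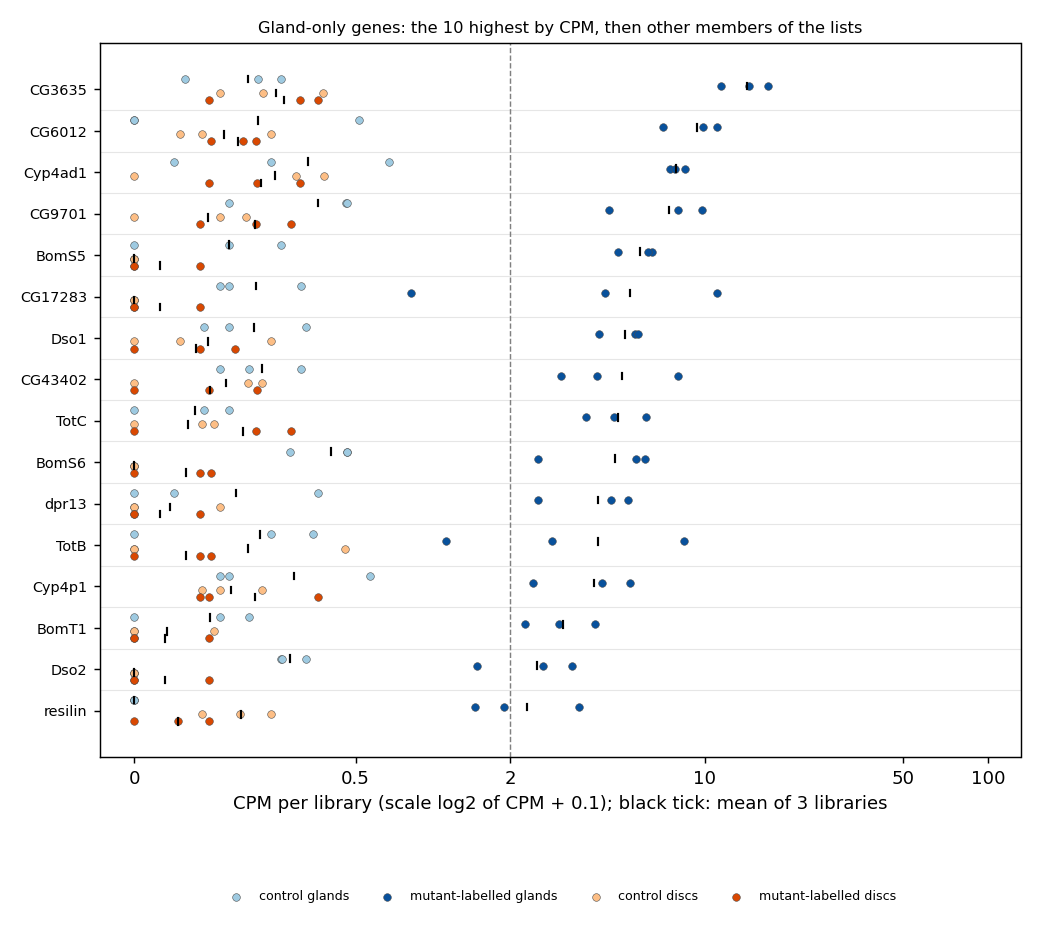
Level of gland-only members in the 12 libraries, in CPM on a log2 scale of CPM + 0.1, with 1 point per library and a colour per group. Mutant-labelled gland libraries stand above the other 3 groups, CG3635 is the highest at 11.4 to 16.8 CPM, and CG17283 shows the widest gap between its libraries, 0.843 to 11.0 CPM.

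The member with the highest mean CPM was a disc-only gene. CG3251 (chromosome 2L, 4688965 to 4690702) read 0.723, 0 and 0.146 CPM in control discs and 93.4, 64.5 and 93.1 CPM in mutant-labelled discs, a 289-fold rise. In glands it was at 0.405, 0.574 and 0.460 CPM in controls and 0.330, 0.439 and 0.182 CPM in mutant-labelled libraries, with overlapping groups. Per kb of transcript, CG42300 on chromosome X was the highest disc-only member, at 56.7 CPM per kb against 49.7 for CG3251. The shared member lncRNA:CR46123 was higher than both, at 108 CPM per kb in mutant-labelled discs. CG42300 went from 0.407, 0.152 and 0.110 CPM to 44.7, 43.9 and 34.9 CPM in discs, 185-fold on average.

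CG3251 belongs to a run of 3 disc-only genes within 8026 bases of chromosome 2L (4682677 to 4690702). The other members of this run are CG11929 and Elba3, which encodes a subunit of the early embryo's ELBA insulator complex. CG11929 rose from 0.0904, 0 and 0.0733 CPM to 19.0, 10.8 and 17.2 CPM in discs, 287-fold. Elba3 had no count in control discs and 9.64, 4.26 and 8.77 CPM in mutant-labelled discs, at least 174-fold higher. In all 3 genes mutant-labelled disc library 2 was the lowest, as it was for 27 of the 57 disc-only members. Elba1, which encodes another subunit of ELBA and lies within the span of CG11929, averaged 0.160 CPM in mutant-labelled discs and had no count in controls. In glands the 3 genes averaged 0.317 CPM or less in mutant-labelled libraries.

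Another run of 3 lies within 2881 bases of chromosome 3R (14109286 to 14112166), with the odorant receptor gene Or88a, the antisense RNA gene asRNA:CR44237 and CG14357. Or88a went from 0.0904, 0.303 and 0.0733 CPM to 27.3, 26.8 and 24.0 CPM in discs. asRNA:CR44237 went from 0.0904, 0.253 and 0.146 CPM to 34.9, 35.7 and 26.2 CPM, and CG14357 from 0.181, 0.101 and 0 CPM to 16.7, 20.2 and 17.2 CPM. These are rises of the mean of 167-fold, 198-fold and 192-fold. Exons of asRNA:CR44237 cover 85.9% of those of Or88a, the strand setting of the counts is unknown, and so it cannot be told which of the pair was transcribed. CG14357, which overlaps neither, was in the same range. Kif19A, the next gene, averaged 1.76 CPM in control and 1.93 CPM in mutant-labelled discs.

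Some members are known from the germline or the early embryo. By a setting assigned to each member from general knowledge, after the values were seen, 6 of the 102 members belong there: bcd, tomboy40, tut, gd, Elba3 and blanks. Of these tut, gd, Elba3 and blanks are 4 of the 57 disc-only members, and the share of other genes with such a setting was not determined. tut, which encodes an RNA-binding partner of Bam and Bgcn in the male germline, went from 0.271, 0.202 and 0.440 CPM to 27.1, 25.4 and 23.3 CPM in discs, 83.0-fold. In glands it went from 0, 0.344 and 0.0766 CPM to 1.08, 1.43 and 0.888 CPM, again with every mutant-labelled library above every control. gd, a serine protease gene that acts in the dorsoventral patterning of the egg, rose from 0.633, 0.404 and 0.366 CPM to 13.1, 9.03 and 10.5 CPM in discs, 23.2-fold. blanks, which encodes a double-stranded RNA binding protein of the testis, went from 0.362, 0.101 and 0.0733 CPM to 5.18, 2.84 and 5.96 CPM.

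Among the germline markers bam rose with tut in discs, and the summed level of the others did not. Summed over the 7 measured markers, all of them with a count, the level was 17.9 to 19.7 CPM in control discs and 41.4 to 52.1 CPM in mutant-labelled discs, while in glands it was 1.01 to 1.34 CPM and 0.781 to 0.957 CPM. Without bam the other 6 summed to 14.1 to 15.1 CPM in control discs and 9.28 to 12.6 CPM in mutant-labelled discs. bam, the partner of tut, went from 2.80, 5.66 and 4.14 CPM in control discs to 31.3, 39.5 and 33.3 CPM in mutant-labelled discs, and vas went from 0.136, 0.303 and 0.293 CPM to 0.686, 1.60 and 0.882 CPM. aub was lower, with 3.35, 5.06 and 4.18 CPM in controls and 2.79, 1.99 and 2.23 CPM in mutant-labelled discs. bgcn overlapped between the groups, with 2.08, 2.78 and 2.20 CPM in controls and 1.41, 2.10 and 1.30 CPM in mutant-labelled discs. The part of these markers in the result was not tested. A list of 170 testis-biased genes gave 135 that were silent in both control tissues and no member. Mst87F of this list averaged 4.45 CPM in mutant-labelled glands, and missed the limit in control glands at 0.517 CPM. Summed over 10 testis markers, Mst87F among them, the level was 3.08 to 4.02 CPM in control glands and 4.46 to 8.77 CPM in mutant-labelled glands. In discs it was 4.25 to 6.42 CPM and 3.06 to 4.41 CPM. From 35 silent genes of an ovary, germline and meiosis list came bcd and tut. Of 38 silent homeotic and patterning transcription factor genes, bcd was the member. Over all control-silent genes 1.27% were members, so nothing is read from these list counts.

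The remaining settings each held few of the disc-only members. Since 1.27% of all control-silent genes were members, nothing is read from the low list counts here and below. Or88a and Ir31a were the members among 242 silent chemosensory genes. Ir31a, an ionotropic receptor gene, went from 0.452, 0.202 and 0.366 CPM to 3.30, 2.52 and 2.98 CPM. stj, which encodes an auxiliary subunit of voltage-gated calcium channels, rose from 0.317, 0.303 and 0.293 CPM to 6.86, 6.11 and 5.96 CPM. TyrRII, a tyramine receptor gene, went from 0.0904, 0 and 0 CPM to 1.33, 1.56 and 5.08 CPM, and side-VII, a gene of the sidestep family of cell-surface proteins, from 0.271, 0.303 and 0.293 CPM to 2.40, 4.76 and 3.19 CPM. Of these nervous system genes only TyrRII owed its place to 1 library. Neuronal markers summed to 19.9 to 27.8 CPM in control discs and 25.6 to 31.1 CPM in mutant-labelled discs, with ChAT at 0 in the controls, so the groups overlapped. A nervous system list of 167 genes held 117 that were silent in both control tissues, of which dpr13, TyrRII and side-VII became members.

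Genes of cilia and muscle each appeared singly or in pairs. Oseg5, which encodes a component of intraflagellar transport, rose from 0.271, 0.303 and 0 CPM to 6.34, 9.28 and 6.42 CPM, and Dhc98D, a dynein heavy chain gene, from 0.136, 0.253 and 0.220 CPM to 5.40, 3.45 and 5.67 CPM. TpnC4, a troponin C gene of adult flight muscle, went from 0.0904, 0.101 and 0 CPM to 4.24, 2.77 and 2.69 CPM, while the summed level of 7 muscle markers overlapped between control (93.1 to 125 CPM) and mutant-labelled discs (87.7 to 116 CPM). TpnC4 was the member among 6 silent muscle genes, and Spn47C the member among 20 silent fat body and hemolymph genes. Spn47C, a serpin gene, went from 0.542, 0.101 and 0.293 CPM to 8.06, 6.86 and 9.95 CPM. Mucin genes are represented by Muc12Ea and Muc11A and cuticle genes by Cpr97Ea. The mucins were the 2 members among 66 silent digestive tract genes, and Cpr97Ea and resilin the 2 among 97 silent cuticle and epidermal genes. Muc12Ea read 0.136, 0.202 and 0.0733 CPM in control discs and 9.00, 3.77 and 3.99 CPM in mutant-labelled discs.

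The disc-only detoxification genes are Ugt35C1 and GstE2. Ugt35C1, a glycosyltransferase gene, had no count in control discs and 2.01, 1.95 and 3.06 CPM in mutant-labelled discs, at least 54.1-fold higher. GstE2, a glutathione S-transferase gene, had counts in 1 control disc library, at 0.101 CPM, and 1.80, 3.77 and 2.27 CPM in mutant-labelled discs. Its pooled ratio was 92.8 with a 95% interval of 25.4 to 772, which covers counting error only. No member came from the lists of piRNA pathway genes, male accessory gland genes, glue and late gland genes or heat-shock genes, of which 2, 55, 1 and 4 were silent in both control tissues. Over all classes, 68 of the 102 members had no setting assigned, and 37 are known by a CG number alone.

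Several disc-only pairs overlap each other, so that each pair may be 1 transcribed unit. asRNA:CR46005 read 0.362, 0.202 and 0.220 CPM in control discs and 24.1, 16.4 and 19.1 CPM in mutant-labelled discs. l(3)mbn, which shares 48.6% of its exon bases with it, read 0.407, 0 and 0 CPM and then 19.2, 13.6 and 15.2 CPM. The same order of libraries, with library 1 the highest and library 2 the lowest, held for both genes. Among all 57 disc-only members, library 1 was the highest for 28 and library 2 the lowest for 27. Rcd-1r lies wholly within exons of CG13102, and the pair reached 5.74 and 5.98 CPM on average from 0.0975 and 0.148 CPM. CG31626 and asRNA:CR45713 share 75.1% and 79.2% of their exon bases, and averaged 6.59 and 3.50 CPM in mutant-labelled discs. Among all 101 members with a gene model, 18 had exons covered at least in part by another model: 2 of the 7 shared, 2 of the 38 gland-only and 14 of 56 disc-only genes.

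Non-overlapping disc-only non-coding genes rose as well. lncRNA:CR43961 (chromosome X, 12067200 to 12070139) had counts in 1 control disc library, at 0.0733 CPM, and 27.0, 28.1 and 28.8 CPM in mutant-labelled discs. Its pooled ratio was 968, with a 95% interval of 268 to 7997 that covers counting error only. lncRNA:CR45577 and lncRNA:CR45578, neighbours on chromosome 3R (10896479 to 10898581), went from 0.0904, 0.152 and 0.146 CPM to 17.4, 13.5 and 18.6 CPM and from 0.181, 0.101 and 0.220 CPM to 11.7, 10.7 and 14.99 CPM. The single member on chromosome 4, which is largely heterochromatic, was lncRNA:CR44441. It rose 47.3-fold in discs, from 0.226, 0.101 and 0.146 CPM to 6.81, 6.72 and 8.86 CPM, and in glands it read 0.101, 0.459 and 0.287 CPM and then 0.781, 1.52 and 1.94 CPM.

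Some disc-only means also rest on few libraries. CG12911 read 8.91, 2.77 and 1.85 CPM in mutant-labelled discs and CG6142 read 5.31, 4.51 and 0.588 CPM. Their control discs read 0, 0.101 and 0.146 CPM and 0.181, 0.202 and 0.146 CPM, below every mutant-labelled library.

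**Figure D4:**
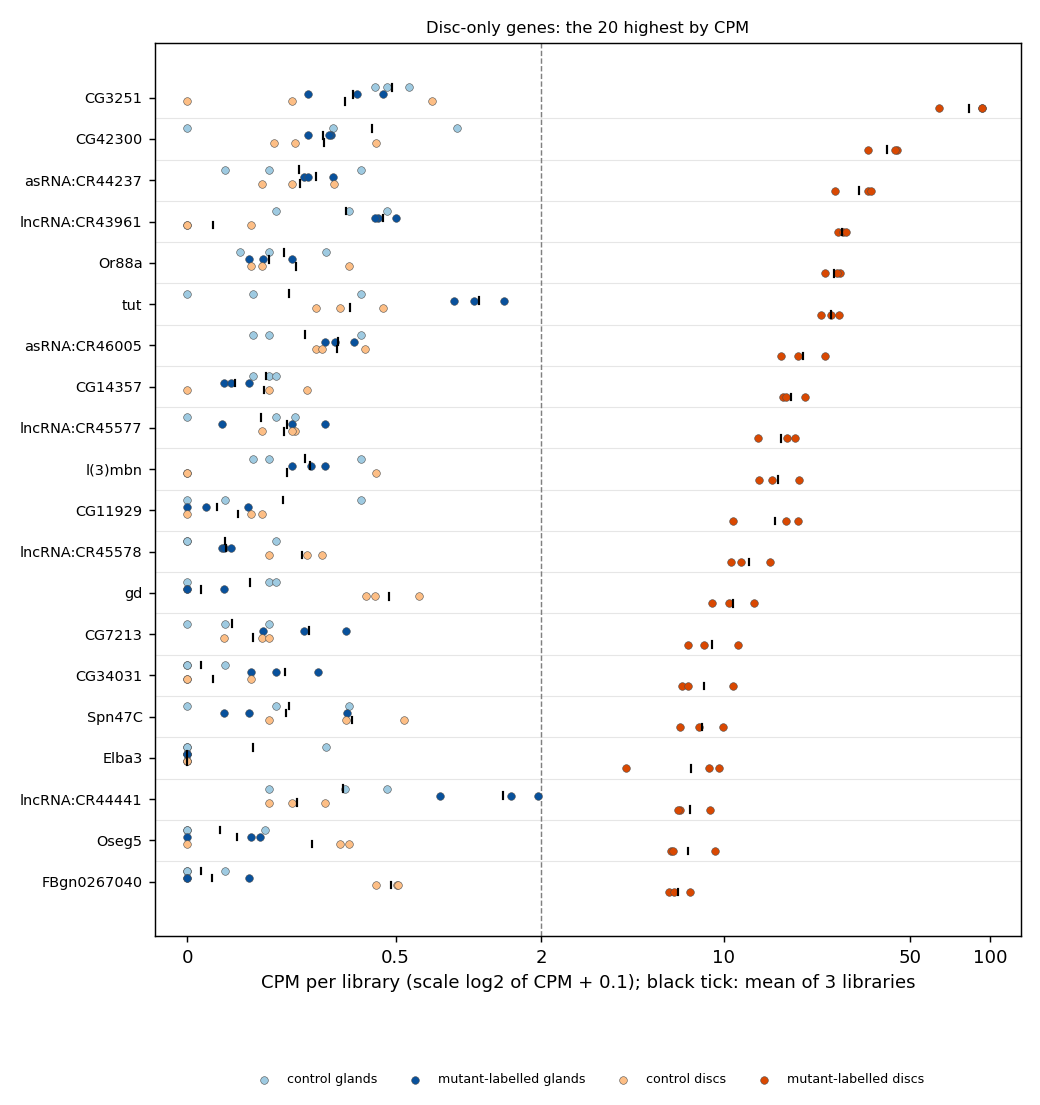
Level of disc-only members in the 12 libraries, in CPM on a log2 scale of CPM + 0.1, with 1 point per library and a colour per group. Mutant-labelled disc libraries stand above the other 3 groups, CG3251 is the highest at 64.5 to 93.4 CPM, and tut also shows mutant-labelled gland libraries, at 0.888 to 1.43 CPM, above control glands.

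Position, gene type and nearby transposons were not used by the rule, and are given as shares beside other genes, with no test. Of the 102 members 74.5% were protein-coding, 19.6% non-coding RNA genes and 4.90% pseudogenes, against 61.3%, 26.6% and 3.34% of the 7902 annotated control-silent non-members, which were under 0.5 CPM in both control groups and under 2 CPM in both mutant-labelled groups. The CPM limit takes no account of length, and members had a median exon length of 1271 bases against 830 bases in those genes. By chromosome arm, 20 members lay on 2L, 25 on 2R, 17 on 3L, 26 on 3R, 12 on X, 1 on chromosome 4 and none on Y. Chromosome arm 2R held 16 of the 38 gland-only members (42.1%) and 6 of 56 disc-only members (10.7%), against 20.4% of all genes.

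Towards the centromeric ends of the arms, where heterochromatin begins, members were more frequent than genes in general. The 5 Mb next to these ends held 16 of 101 members (15.8%), against 7.96% of all genes and 9.05% of the control-silent non-members. The share differed by class, with 4 of 7 shared (57.1%), 2 of 38 gland-only (5.26%) and 10 of 56 disc-only genes (17.9%). The gland-only share rests on 2 genes, and nothing is read from it. The shared genes there were lncRNA:CR46123, lncRNA:CR46253, CR40282 and mir-2279. Within the last 2.5 Mb the counts were 2, 2 and 5, or 8.91% of members, against 2.83% of all genes and 3.87% of the control-silent non-members. The gland-only share was 5.26% there too, so it was below that of all genes at 5 Mb and above it at 2.5 Mb.

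A transposon insertion annotated in the reference genome lay within 1 kb of 28 of 101 members (27.7%), against 12.4% of all genes, 11.3% of the control-silent non-members and 13.3% of genes with at least 2 CPM in a control group. Outside the 5 Mb near the centromeres the share was 20 of 84 members (23.8%), against 10.2% of all genes. Restricted to genes that span under 10 kb it was 26 of 91 (28.6%), against 9.31%. The share was alike in gland-only members (11 of 38) and disc-only members (16 of 56), and 1 of the 7 shared members, lncRNA:CR46253, had such an insertion, 23 bases away. In 14 members (13.9%) an insertion lay inside the gene span, against 5.98% of all genes, among them CG3635, the highest gland-only gene, and CG7213, CG34031 and Spn47C in discs. The nearest outside a span were those of lncRNA:CR44441 at 16 bases and Oseg5 at 23 bases. These insertions belong to the reference strain, and those of Oregon R and of the mutants were not examined.

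Of the 101 members with a gene model 28 (27.7%) had the start of another member within 10 kb, in 12 runs of 2 to 4 genes. This is a description, with no share for other genes beside it, and some of the runs are overlapping models or gene families. Within a run the class was shared in 11 cases out of 12, and the exception was the run of BomT1, BomS5, BomS6 and GstE2 (chromosome 2R, 18381393 to 18400375), where GstE2 is disc-only. The Bomanin, Daisho and Turandot runs are gene families, while Vkor and resilin are not of 1 family.

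Non-members that overlap no member and lie within 10 kb of one were tested, mutant-labelled against control, in the tissue where the member was active. The rule did not choose these genes, but the same values kept them from membership, so the measure is not independent of the rule. This test was chosen after values had been seen. In glands 34 of 128 such neighbours (26.6%) were higher in mutant-labelled libraries and 15 (11.7%) were lower, by edgeR's quasi-likelihood test at an adjusted p under 0.05. Over all 9441 genes tested these shares were 7.26% and 5.91%. In discs 40 of 116 neighbours (34.5%) were higher and 22 (19.0%) lower, over a background of 16.0% and 15.2% of 9379 genes. Neighbours of a single locus are not independent: those higher in glands include the other Bomanin genes beside BomT1, with GstE1 and GstE10. Those higher in discs include moon, CG34323 and CR43086. The rule left these out only for control gland means of 0.597, 0.535 and 0.552 CPM. The median log2 change of neighbours, at 0.02 in glands and 0.10 in discs, stayed near the medians of all genes, -0.04 and 0.00. Within 50 kb the share of higher genes was 11.4% in glands and 21.0% in discs. The count of lower neighbours moved most with single libraries. In glands it was 9, 8, 7 and 6 without control library 1, control library 3, mutant-labelled library 1 and mutant-labelled library 2, and in discs it was 14 without control library 2 or 3. Fitted with all 12 libraries, 5 neighbours were lower in discs.

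The strongest of these neighbours had levels as high as the members. On chromosome X, CG34323 lies 298 bases from lncRNA:CR43961, and moon, whose product starts transcription of piRNA source loci in the female germline, lies 1869 bases from it. CG34323 went from 0.0452, 0.101 and 0 CPM to 41.7, 47.1 and 44.2 CPM in discs (log2 9.86 ± 0.26, edgeR adjusted p = 1.28e-09). moon went from 0.271, 0.152 and 0.147 CPM to 54.6, 48.3 and 44.3 CPM (log2 8.02 ± 0.20, edgeR adjusted p = 1.14e-09). Both just missed membership, since their control gland means were 0.535 and 0.597 CPM. Ten-a, within whose span the locus lies, averaged 739 CPM in control and 659 CPM in mutant-labelled discs.

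Beside gd, at 67 bases, lies cac, which encodes the pore subunit of the same class of calcium channels that stj assists. It rose from 2.85, 2.17 and 2.09 CPM to 64.2, 47.3 and 58.7 CPM in discs (log2 4.61 ± 0.17, edgeR adjusted p = 1.49e-08). In glands its groups overlapped, at 0.455, 0.459 and 0.555 CPM against 0.521, 0.402 and 0.228 CPM. The pseudogene CR43086, beside CR43087, went from 0.678, 0.455 and 0.366 CPM to 102, 75.4 and 102 CPM in discs (log2 7.57 ± 0.21, edgeR adjusted p = 2.09e-09). Reads of these pseudogenes may be shared with near-identical copies, so their values are uncertain.

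CR41440, a pseudogene 273 bases from CR40282, was higher in both tissues, as its neighbour was. It went from 0.101, 0.746 and 0.0192 CPM to 4.65, 5.56 and 3.30 CPM in glands (log2 4.43 ± 0.84, edgeR adjusted p = 0.0116). In discs it went from 0.542, 0.0506 and 0.989 CPM to 22.8, 15.4 and 20.7 CPM (log2 5.12 ± 0.39, edgeR adjusted p = 6.12e-06). The neighbours of Cyp6a17 split by tissue: Cyp6a23, at 90 bases, was higher in mutant-labelled discs (log2 5.15 ± 0.57, edgeR adjusted p = 8.34e-05), and Cyp6a22, at 248 bases, in mutant-labelled glands (log2 2.02 ± 0.37, edgeR adjusted p = 0.0105). Cyp6a23 averaged 1.03 CPM in control and 0.492 CPM in mutant-labelled glands, and Cyp6a22 averaged 0.0883 and 0.121 CPM in discs. The difference between the tissues was not tested for them.

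Around GstE2 the neighbours went both ways in discs. GstE1 rose from 31.0 to 128 CPM on average (log2 2.07 ± 0.08, edgeR adjusted p = 2e-08) and GstE10 from 11.6 to 50.0 CPM (log2 2.13 ± 0.16, edgeR adjusted p = 4.66e-06), while GstE5 fell from 4.78 to 0.519 CPM (log2 -3.19 ± 0.40, edgeR adjusted p = 2.28e-04). GstE6, GstE8 and GstE9 fell as well, by 1.51 ± 0.36, 0.79 ± 0.20 and 1.16 ± 0.40 on the log2 scale (edgeR adjusted p = 0.0105, 0.0126 and 0.0481). In glands GstE1 and GstE10 were higher too, by 1.93 ± 0.25 and 1.98 ± 0.22 (edgeR adjusted p = 0.0024 and 0.0013).

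**Figure D5:**
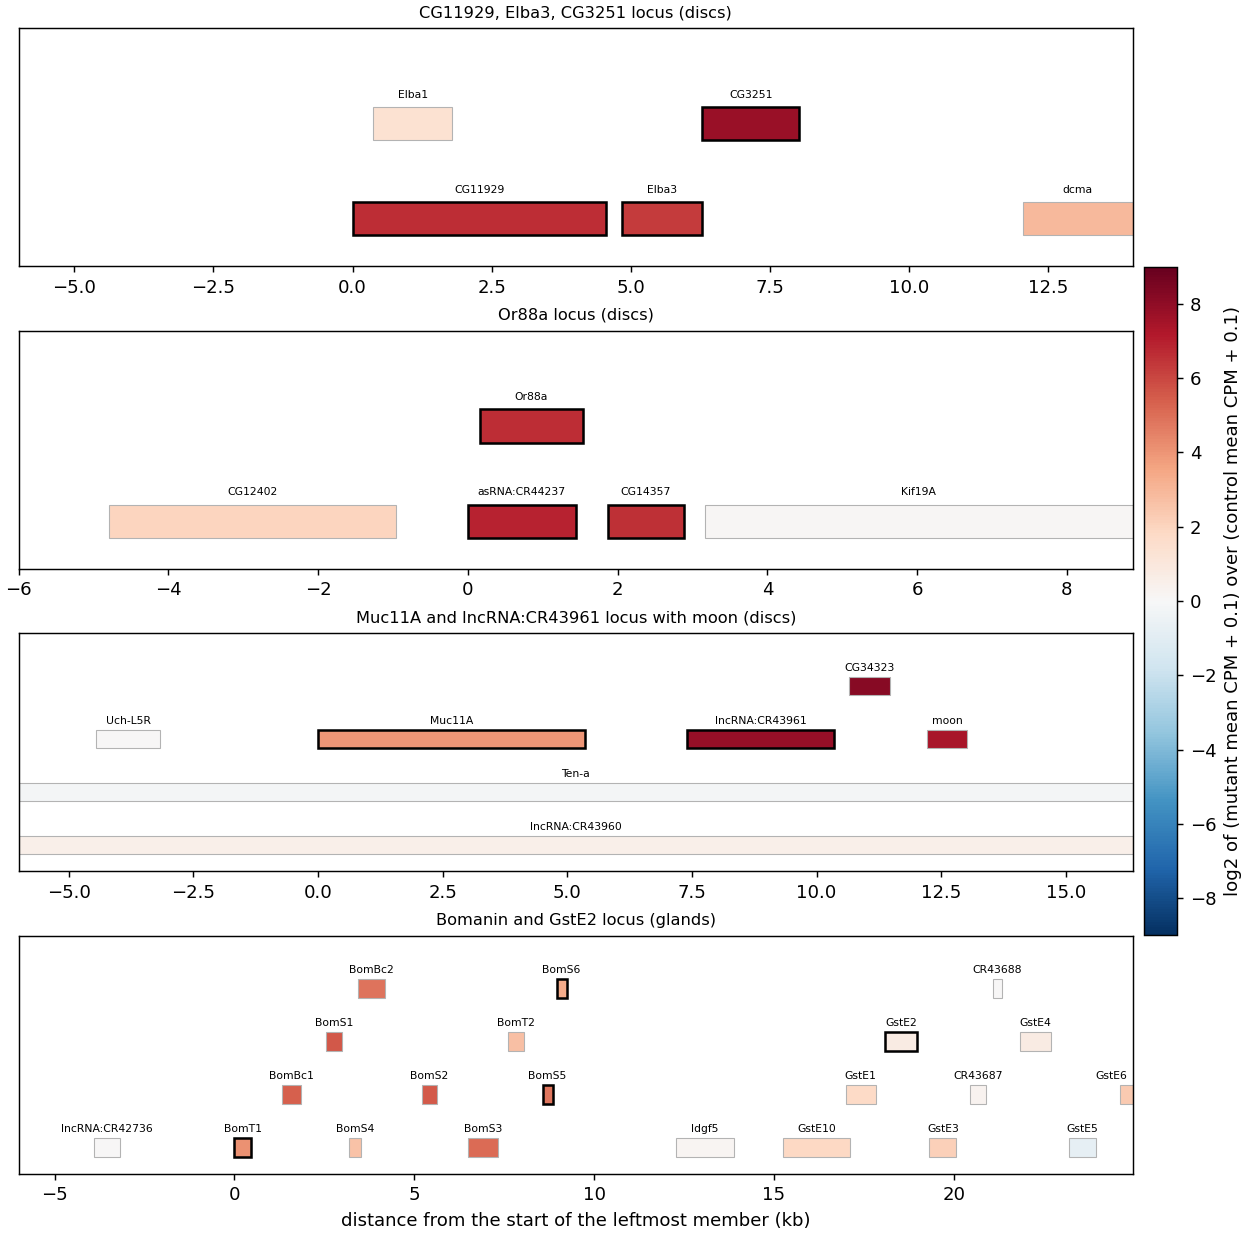
Genes around 4 runs of members, drawn by distance from the start of the leftmost member in kb, with black outlines for members and colour for the log2 ratio of mean CPM + 0.1, mutant-labelled over control, in discs (3 upper panels) or glands (lowest panel). CG34323 and moon next to lncRNA:CR43961 are as strongly coloured as the members, the 10 Bomanin genes are all coloured as higher, and Ten-a and Kif19A stay near 0.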

How the data were processed

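Polyadenylated RNA of 12 libraries, 3 in each of 4 groups, was measured with 150 bp paired reads from a NEBNext Ultra II kit, with the strand setting of the counting unknown. The gene tables deposited by the authors hold whole-number counts per FlyBase gene ID. The submitters' processing notes name cutadapt, HISAT2, featureCounts and the builds BDGP6 and dm6, with no versions or options. Counting of shared reads between overlapping or near-identical genes is not stated. The transposon tables were not used here.

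CPM were computed from library sums of counts, with depth of 17418224 to 57591665. Gene models and annotated transposons came from the BDGP6 annotation (release 115), which held 17710 of 17807 IDs. Members and gene lists were chosen with earlier results of these data known. The usual setting of members, the neighbour test, the 5 Mb regions and the transposon distance were chosen after values had been seen. Genes named are the 10 highest members per class, members on the lists, shared members that differ between the tissues, runs of 3 or more, those nearest the limits, the most uneven members, egg and Su(var)3-9. Others were picked after their values were seen.

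Tests used edgeR 4.0.16 in R 4.3.3 (filterByExpr, TMM factors, quasi-likelihood F test, Benjamini-Hochberg adjustment, threshold 0.05), tested on simulated data, with limma 3.58.1 and DESeq2 1.42.0 as alternatives. The fit of mutant-labelled discs against glands is given as a description, since the rule used both means. SE is the log2 change fitted without shrinkage, divided by the square root of F, while the log2 change printed is edgeR's shrunken one. A fold against a group with no count uses 3 counts over that group; with 1 to 3 counts the ratio of pooled counts has an exact 95% interval. Transcript length is the summed length of merged exons. Alternatives were other limits, scalings, filters, tools, a replicate block and each library left out. Promoter motifs were not analysed here.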

Additional observations from a re-analysis of the deposited data

Results flagged for a closer look

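Su(var)3-9 moved in opposite directions in the tissues. Its mean was 2.57 ± 0.398 CPM in control glands and 76.9 ± 20.1 CPM in mutant-labelled glands (SD, n = 3), and 25.2 ± 0.510 CPM in control discs and 3.94 ± 0.762 CPM in mutant-labelled discs. Every mutant-labelled gland library lay above, and every mutant-labelled disc library below, the controls of its tissue. The difference between the tissues was not tested here.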

How the results depend on the processing

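The number of members depends on the limits. A control limit of 0.25 CPM left 58 members (2 shared, 20 gland-only, 36 disc-only) and one of 1 CPM gave 187 (15, 74 and 98). A mutant limit of 1 CPM gave 197 (16, 69 and 112), and one of 4 CPM left 56, with 14 gland-only and 37 disc-only. With every control library under 0.5 CPM, 2 shared and 24 gland-only members remained within the limits, and with every mutant-labelled library at 2 CPM or more, 21 gland-only members. Leaving out 1 library gave 98 to 114 members (6 to 9 shared, 34 to 43 gland-only, 55 to 64 disc-only), the highest without control gland library 2. TMM-normalised CPM gave 99 members (9, 48 and 42; 76 in common) and DESeq2 size factors 101 (10, 47 and 44; 74 in common), so gland-only genes outnumbered disc-only ones on both scales. With TMM-normalised CPM, 41 in place of 27 members reached 2 CPM in all 3 mutant-labelled gland libraries. In the 2.5 Mb nearest the centromeres the counts of shared and disc-only members were 2 and 5.

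Of the 7 shared members, those past the threshold towards discs numbered 1 with RLE factors, 4 with library totals (0 higher in glands) and 1 to 2 with a library left out, when 3 to 4 were higher in glands. With library totals bcd (0.119), mir-2279 (0.066) and lncRNA:CR46253 (0.898) turned direction, which follows from the scale. Replicate numbers were not taken as pairs, since the correlations of same-numbered libraries ran from -0.0687 to 0.382 and were not all above 0.1. With a replicate block 3 shared members were higher in discs and 4 in glands, lncRNA:CR46123 passing at 0.666, and neighbours numbered 38 higher and 20 lower in glands, 40 and 24 in discs.

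Neighbours called lower were 6 to 19 in glands and 14 to 23 in discs with a library left out, and those called higher 23 to 33 and 38 to 43. They were 5 in discs with all 12 libraries fitted, 14 in discs within 5 kb, and 28 in glands and 73 in discs within 50 kb, where 90 were higher in discs and 43 of 378 (11.4%) in glands. The cause of these changes was not tested, other than the larger number of genes at 50 kb. Depth limits genes near 0.5 CPM, which rest on 8.71 to 28.8 counts.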
